A study of Rattus norvegicus with 10 samples.

Results

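The genes described here are those of the rat major histocompatibility complex (MHC), called RT1 in this species, together with the genes that load and regulate its molecules. They were taken as every row of the table whose symbol begins with RT1-, plus 15 named genes: Cd74, Ciita, B2m, Tap1, Tap2, Tapbp, Tapbpl, Psmb8, Psmb9, Psmb10, Psme1, Psme2, Nlrc5, Erap1 and Cd1d1. This gave 60 of the 32545 rows, since Tap2 has 2 rows with different identifiers. Of the 60 rows, 34 are class I chains, 10 are class II chains, 13 are class I helpers or immunoproteasome genes, 2 are class II helpers and 1 is the lipid-presenting Cd1d1. Messenger RNA of the cortex of the left kidney was sequenced from male rats aged 11 to 12 weeks, in 5 libraries of genotype Kcnj16_m1 and 5 of genotype SS_WT. Kcnj16 encodes an inwardly rectifying potassium channel subunit of the kidney tubule. Both groups share the Dahl salt-sensitive strain background, an inbred rat line used as a model of salt-induced hypertension, so the wild-type rats are themselves of a disease-prone line. Kidneys were flushed with buffered saline before freezing. The labels do not describe the change in the Kcnj16_m1 allele or say that each library is a separate animal, so a p-value here reflects how these libraries vary, which may be technical.

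MHC class I molecules sit on nearly all nucleated cells. They pair a polymorphic heavy chain with beta-2-microglobulin (B2m) and show peptides that the proteasome cuts in the cytosol and that the TAP transporter carries into the endoplasmic reticulum. Interferon gamma swaps the catalytic subunits of the standard proteasome for those of the immunoproteasome, Psmb8, Psmb9 and Psmb10. Class II molecules are alpha and beta chain pairs that the invariant chain Cd74 escorts to endosomes. They are made mainly by dendritic cells, macrophages and B cells, and in injured kidneys by tubule cells too. NLRC5 drives transcription of class I genes and CIITA that of class II genes. Both act through promoter elements named X and Y boxes, while interferon-driven factors bind a separate response element. In bulk tissue, fewer cells of a type and less RNA per cell cannot be told apart.

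Of 59 member symbols, 47 matched a promoter sequence from RefSeq (assembly GRCr8), reaching from 250 bases before to 50 bases after the start of the gene. No source used here names the build of the deposited table, so the coordinates of the windows are those of GRCr8 alone. Each window was searched on both strands for an X box core, a Y box core (ATTGG) and the core of the interferon response element, a pair of GAAA repeats with any 2 bases between them. The X box spelling was chosen after several looser spellings had been tried on these promoters. These 6 windows are shown as examples of the class II, class I and immunoproteasome genes whose levels follow. Capitals mark the matches, the long run in RT1-Da and in RT1-DOb being the X box core.
RT1-Da: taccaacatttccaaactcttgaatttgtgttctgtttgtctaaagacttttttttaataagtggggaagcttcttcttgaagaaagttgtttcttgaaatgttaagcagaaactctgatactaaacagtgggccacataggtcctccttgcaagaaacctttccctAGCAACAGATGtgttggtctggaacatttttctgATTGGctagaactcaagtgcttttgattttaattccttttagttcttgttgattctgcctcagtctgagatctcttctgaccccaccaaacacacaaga
RT1-DOb: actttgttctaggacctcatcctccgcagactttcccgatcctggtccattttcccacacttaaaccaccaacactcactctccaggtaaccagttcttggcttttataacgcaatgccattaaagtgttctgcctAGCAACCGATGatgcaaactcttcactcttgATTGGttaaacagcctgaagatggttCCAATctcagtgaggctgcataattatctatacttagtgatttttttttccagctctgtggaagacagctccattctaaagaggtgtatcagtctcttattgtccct
RT1-Ba: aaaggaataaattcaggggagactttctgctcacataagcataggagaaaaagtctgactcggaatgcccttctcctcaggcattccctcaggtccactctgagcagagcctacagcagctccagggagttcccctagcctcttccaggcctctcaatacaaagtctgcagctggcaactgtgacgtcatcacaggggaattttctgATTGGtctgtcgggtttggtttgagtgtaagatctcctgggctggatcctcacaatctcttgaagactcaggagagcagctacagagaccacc
RT1-CE16: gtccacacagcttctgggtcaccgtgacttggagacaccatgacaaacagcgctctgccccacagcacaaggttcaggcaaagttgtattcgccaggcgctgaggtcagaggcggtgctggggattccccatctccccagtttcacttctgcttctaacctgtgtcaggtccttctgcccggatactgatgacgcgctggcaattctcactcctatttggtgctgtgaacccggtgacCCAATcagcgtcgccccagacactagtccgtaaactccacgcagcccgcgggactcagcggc
B2m: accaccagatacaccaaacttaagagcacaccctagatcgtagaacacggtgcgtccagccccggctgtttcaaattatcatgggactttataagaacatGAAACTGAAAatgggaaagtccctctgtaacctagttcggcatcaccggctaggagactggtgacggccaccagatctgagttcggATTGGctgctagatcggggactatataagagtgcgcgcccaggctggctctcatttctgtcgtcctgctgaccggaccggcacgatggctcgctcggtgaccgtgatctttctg
Psmb10: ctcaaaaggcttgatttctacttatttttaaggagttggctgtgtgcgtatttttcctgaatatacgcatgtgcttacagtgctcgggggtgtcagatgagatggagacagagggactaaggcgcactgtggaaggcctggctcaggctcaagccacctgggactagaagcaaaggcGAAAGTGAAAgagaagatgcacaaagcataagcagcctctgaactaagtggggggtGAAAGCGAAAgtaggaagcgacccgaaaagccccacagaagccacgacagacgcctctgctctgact
The windows lie at chr20:4515165-4515464 (plus strand), chr20:4627474-4627773 (minus), chr20:4576807-4577106 (plus), chr20:3265394-3265693 (minus), chr3:129549080-129549379 (plus) and chr19:50743243-50743542 (minus). The X box core was in the windows of RT1-Da, RT1-Db1, RT1-Db2 and RT1-DOb, 4 of 9 class II chains with a window, in 0 of 26 class I chains and in 0.248% of all 33469 promoters. Since the spelling was chosen on these same promoters, these X box counts cannot compare the classes. A window without a match, such as that of RT1-Ba, may still hold an X box spelled otherwise. The Y box core, a short and common string, was in 9 of 9 class II and 17 of 26 class I windows and in 37.5% of all promoters. The interferon response element core was in 0 of 9 class II windows, 3 of 26 class I windows and 7 of 10 windows of class I helper and immunoproteasome genes, among them B2m, Psme2, Psmb10, Psmb8, Tap1, Tap2 and Tapbp, against 3.92% of all promoters. These are matches of letters and show no binding. No overlap between matches of different motifs was found in the printed windows.

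Expression is given in FPKM, a fragment count scaled by the authors for gene length and sequencing depth, so levels of different genes are compared per length. Whole reads recovered from these values came to between 16361516 and 23385968 per library. Kcnj16 itself stood at 307.5 to 338.9 FPKM in the Kcnj16_m1 libraries and 323.0 to 371.6 FPKM in the SS_WT libraries (limma adjusted p = 0.278), which cannot check the genotype labels. Kidney cortex markers were present in every library, with the 8 proximal tubule markers summing to 3976 to 4408 FPKM in Kcnj16_m1 and 2993 to 3732 FPKM in SS_WT. Of the 60 rows, 37 had at least 0.5 FPKM in at least 5 libraries and were tested. Another 8, all class I rows, were at 0 in every library, and the remaining 15 were too low to test. Members below the filter therefore do not enter any count of changed genes.

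Antigen presentation genes were lower in Kcnj16_m1 than in SS_WT kidneys or did not pass the test. Of the 37 tested members, 19 were lower, 0 higher and 18 did not pass (limma on log2(FPKM + 0.5), Benjamini-Hochberg adjusted p under 0.05 over 13971 genes). Across all genes tested, 14.0% were lower and 14.6% higher, 28.5% in either direction. The 19 members make up 51.4% of those tested, and all 19 reached 0.5 FPKM in every Kcnj16_m1 library. For 13 members, all lower in Kcnj16_m1, no library of one genotype reached the range of the other. Of all genes, 9.34% were lower and 9.88% higher without overlap, 19.2% in either direction. The median log2 fold change, Kcnj16_m1 minus SS_WT, was -0.36 over the 37 members and 0.0079 over all genes. Fold changes of genes with low values are understated on this scale.

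**Figure D1:**
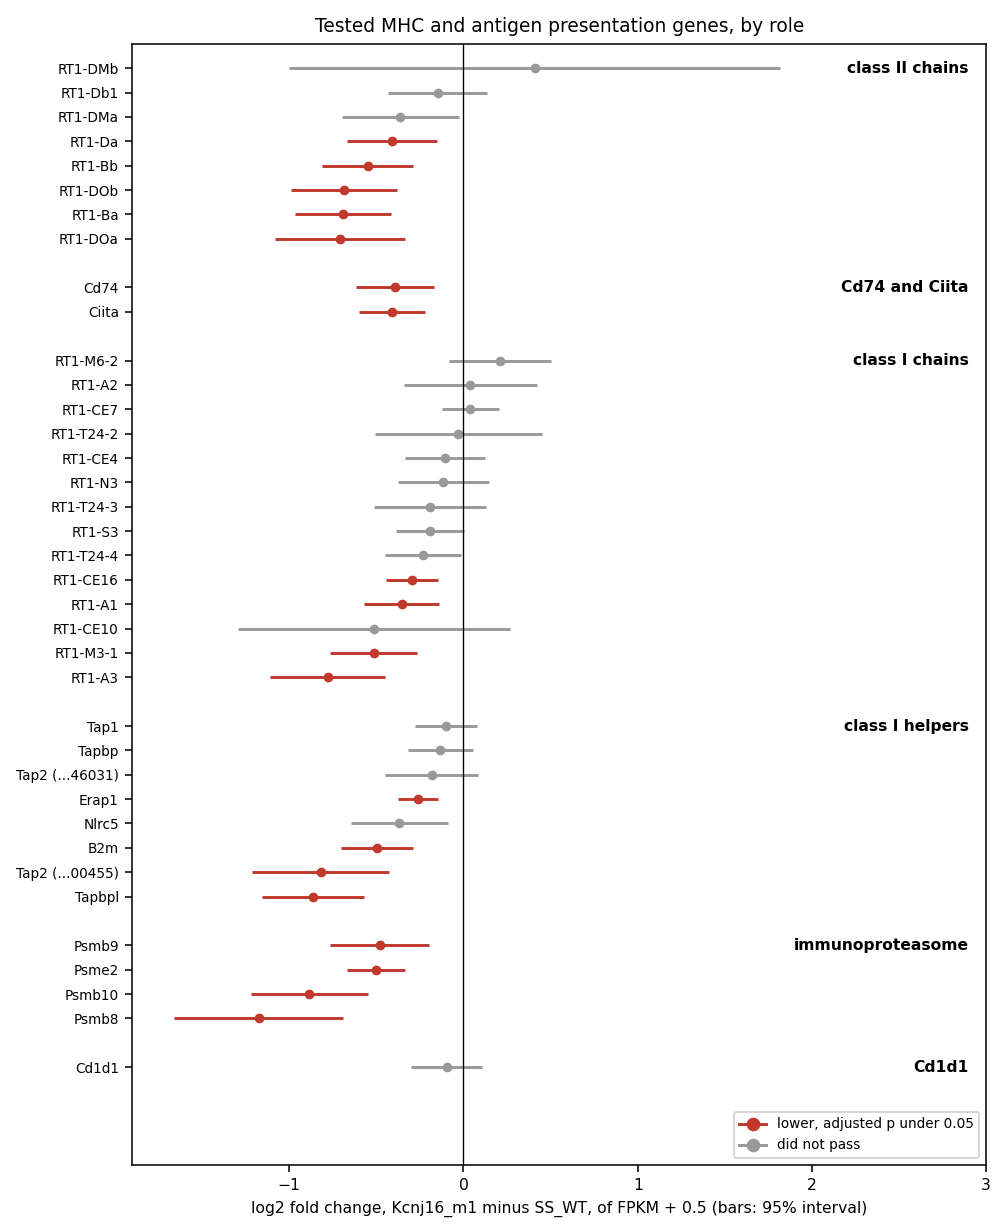
Log2 fold change (x axis, Kcnj16_m1 minus SS_WT, of FPKM + 0.5) with its 95% interval for the 37 tested members, grouped by role down the page. Red points are lower at an adjusted p under 0.05 and grey points did not pass: all 4 tested immunoproteasome genes are red, against 4 of 14 class I chains.

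Class II chains were lower for 5 of 8 tested members, and the other 3 did not pass. RT1-Da, the alpha chain of the D molecule and the most abundant MHC chain in the cortex, had 81.5, 70.9, 88.5, 92.1 and 91.3 FPKM in Kcnj16_m1 replicates 1 to 5. In SS_WT replicates 1 to 5 it had 116.0, 108.04, 141.0, 86.9 and 116.8 FPKM. SS_WT replicate 4 lay within the range of the mutants and the other 4 wild-type libraries above it. RT1-Da fell by 0.41 on the log2 scale (SE 0.12, limma adjusted p = 0.0243). This call was lost without Kcnj16_m1 replicate 1 (adjusted p = 0.0530), Kcnj16_m1 replicate 2 (adjusted p = 0.0552) or SS_WT replicate 5 (adjusted p = 0.0527). It was also lost without SS_WT replicates 1 and 2, the SS_WT pair with the lowest label numbers (adjusted p = 0.0676). Over all alternatives its adjusted p ranged from 0.00463 to 0.0676. SS_WT replicates 1, 2 and 3 carry label numbers below those of every Kcnj16_m1 library, and leaving out the pair keeps replicate 3. SS_WT replicates 4 and 5 have label numbers within the Kcnj16_m1 range. The part of label order in the differences between the genotypes was not tested.

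The alpha and beta chains of the B molecule moved together. RT1-Ba had 25.1, 22.8, 28.4, 29.1 and 31.3 FPKM in Kcnj16_m1 replicates 1 to 5 and 41.5, 37.5, 51.1, 37.9 and 56.4 FPKM in SS_WT replicates 1 to 5. RT1-Bb had 25.4, 20.8, 26.9, 28.6 and 32.8 FPKM in Kcnj16_m1 and 33.2, 40.2, 44.7, 35.6 and 43.5 FPKM in SS_WT. Every wild-type library was above every mutant library for both chains. RT1-Ba fell by 0.69 (SE 0.13, limma adjusted p = 0.00286) and RT1-Bb fell by 0.55 on the log2 scale (SE 0.12, adjusted p = 0.00679). In both groups the per-length levels of the pair were close to each other, while RT1-Da stood far above RT1-Db1, the beta chain it pairs with. RT1-Db1 averaged 7.39 ± 0.890 FPKM in Kcnj16_m1 and 8.32 ± 1.61 FPKM in SS_WT (SD, n = 5 each, also below) and did not pass (log2 fold change -0.15, 95% interval -0.43 to 0.13, adjusted p = 0.412). RT1-Db2, its close copy, was at 0.0295 to 0.0817 FPKM in Kcnj16_m1 and 0.0402 to 0.204 FPKM in SS_WT and was not tested. Beta chains are highly polymorphic, and how reads of this strain map to the reference haplotype was not tested.

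The editors of class II peptide loading were expressed at low levels. RT1-DOa and RT1-DOb form the molecule that restrains the peptide exchanger made of RT1-DMa and RT1-DMb. RT1-DOb had 1.85, 1.86, 2.42, 1.72 and 2.23 FPKM in Kcnj16_m1 replicates 1 to 5 and 2.88, 3.12, 5.12, 3.26 and 3.6 FPKM in SS_WT replicates 1 to 5. RT1-DOa had 0.520, 0.529, 1.15, 0.900 and 0.864 FPKM in Kcnj16_m1 and 1.33, 1.70, 2.27, 1.42 and 1.28 FPKM in SS_WT. Neither gene had overlapping groups. RT1-DOb fell by 0.69 (limma adjusted p = 0.00476) and RT1-DOa fell by 0.71 on the log2 scale (adjusted p = 0.0110), RT1-DOa resting on 15 to 37 reads per Kcnj16_m1 library and 37 to 69 per SS_WT library. RT1-DMa averaged 0.509 ± 0.143 FPKM in Kcnj16_m1 and 0.801 ± 0.202 FPKM in SS_WT and did not pass (log2 fold change -0.36, adjusted p = 0.0972). It passed without SS_WT replicate 1, its lowest wild-type library (adjusted p = 0.0224).

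RT1-DMb did not follow genotype. It had 2.07, 0.271, 3.96, 2.15 and 3.27 FPKM in Kcnj16_m1 replicates 1 to 5 and 0.176, 4.31, 2.02, 3.27 and 0.194 FPKM in SS_WT replicates 1 to 5. Kcnj16_m1 replicate 2 and SS_WT replicates 1 and 5 were near 0, with 11, 7 and 8 reads, and the other 7 libraries had between 88 and 183 reads. The log2 fold change of 0.41 had a 95% interval from -1.0 to 1.82 (limma adjusted p = 0.670). The neighbouring RT1-DMa did not show this split, since its level in those 3 libraries was 0.375, 0.452 and 0.838 FPKM. The median log2 fold change of the class II chains was -0.48 over 8 tested genes (-0.60 to -0.39 over the alternatives) and -0.55 over the 7 without RT1-DMb.

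Both class II helpers fell. Cd74, the invariant chain, had 571.1, 570.5, 632.5, 631.9 and 710.5 FPKM in Kcnj16_m1 replicates 1 to 5 and 721.2, 914.3, 895.2, 679.0 and 895.8 FPKM in SS_WT replicates 1 to 5. Kcnj16_m1 replicate 5 lay above SS_WT replicate 4, and the groups were otherwise apart. Cd74 fell by 0.39 on the log2 scale (SE 0.10, limma adjusted p = 0.0163), and lost the call after quantile normalization (adjusted p = 0.0601, 0.00651 to 0.0601 over the alternatives). Ciita, the class II master regulator, had 1.77, 1.84, 2.13, 2.004 and 2.201 FPKM in Kcnj16_m1 and 2.97, 2.69, 2.99, 2.35 and 3.05 FPKM in SS_WT. Its groups did not overlap, and it fell by 0.41 on the log2 scale (SE 0.087, adjusted p = 0.00620).

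**Figure D2:**
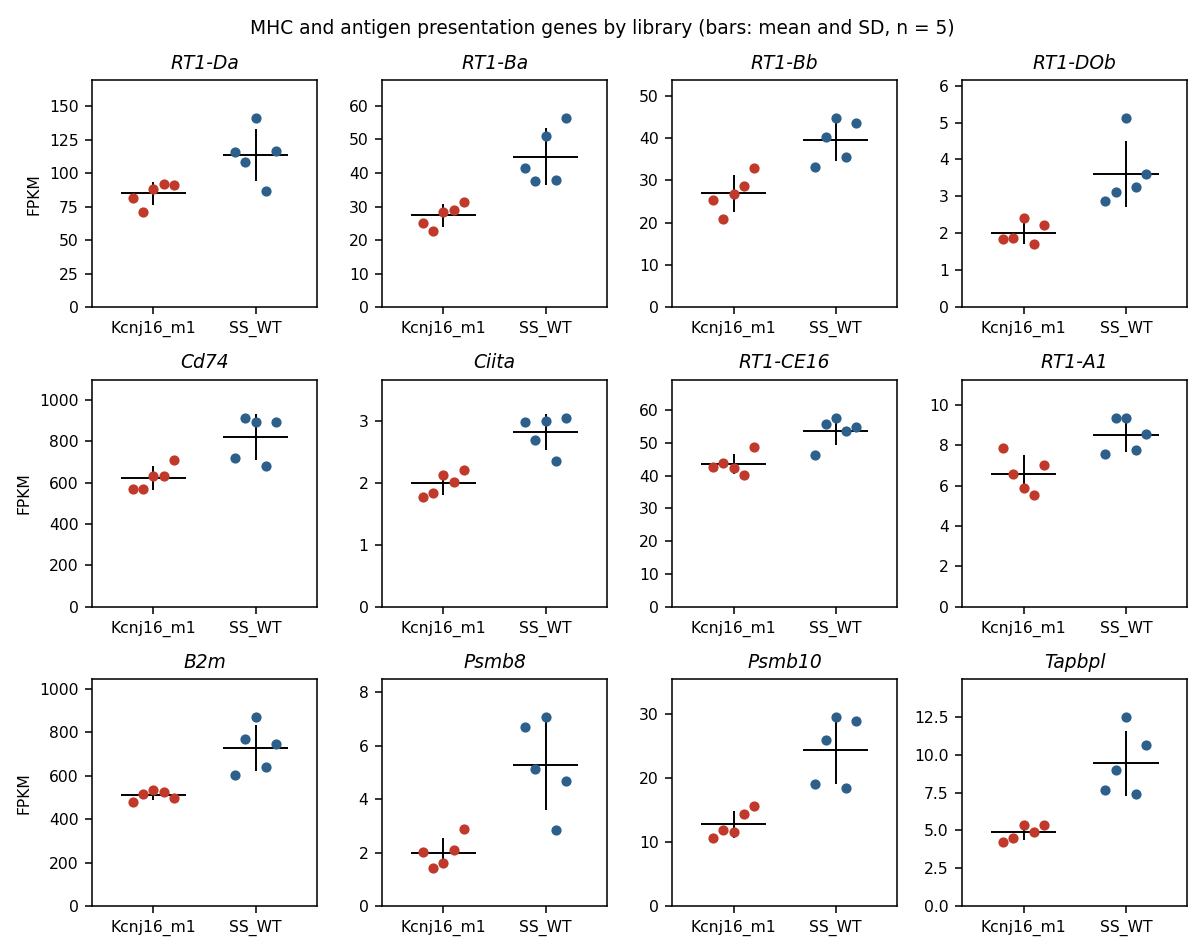
FPKM (y axis, from 0, scale set per gene) of 12 members in each library, with Kcnj16_m1 in red and SS_WT in blue. Horizontal bars are means and vertical bars SDs over 5 libraries: the groups are apart for RT1-Ba, RT1-Bb, RT1-DOb, Ciita, B2m, Psmb10 and Tapbpl and overlap for RT1-Da, Cd74, RT1-CE16, RT1-A1 and Psmb8.

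Of 14 tested class I chains, 4 were lower, 0 higher and 10 did not pass. Their median log2 fold change was -0.19, with -0.13 without SS_WT replicate 5 and a range of -0.29 to -0.083 over the alternatives, the smallest with no filter on low values. The share of lower calls, 28.6%, stands beside 14.0% of all genes, and 7.14% of the tested class I chains had groups that did not overlap, beside 9.34% of all genes. RT1-CE16 and RT1-S3 together held 59.5% ± 1.29 of the summed class I FPKM in Kcnj16_m1 and 59.3% ± 1.69 in SS_WT. RT1-CE16 had 42.6, 43.9, 42.3, 40.4 and 48.8 FPKM in Kcnj16_m1 replicates 1 to 5 and 46.4, 55.9, 57.7, 53.6 and 54.8 FPKM in SS_WT replicates 1 to 5. Only Kcnj16_m1 replicate 5 reached above the lowest wild-type library. RT1-CE16 fell by 0.30 on the log2 scale (SE 0.068, limma adjusted p = 0.00936). RT1-A3, annotated on the same strand over part of RT1-CE16, averaged 3.59 ± 0.687 FPKM in Kcnj16_m1 and 6.53 ± 1.24 FPKM in SS_WT and fell by 0.78 on the log2 scale (adjusted p = 0.00385). Reads of these overlapping rows can be split either way, so each value is uncertain.

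RT1-S3, a nonclassical chain whose mouse relative is H2-T23, had 37.9, 38.8, 36.8, 44.5 and 48.4 FPKM in Kcnj16_m1 replicates 1 to 5 and 46.3, 42.8, 48.9, 43.7 and 54.2 FPKM in SS_WT replicates 1 to 5. The groups overlapped and the difference did not pass (log2 fold change -0.19, 95% interval -0.39 to 0.0024, limma adjusted p = 0.126), but it passed without Kcnj16_m1 replicate 5 (log2 fold change -0.25, adjusted p = 0.0484). The classical chain gene RT1-A1 averaged 6.59 ± 0.935 FPKM in Kcnj16_m1 and 8.53 ± 0.842 FPKM in SS_WT and fell by 0.35 on the log2 scale (adjusted p = 0.0207). Its call was lost without Kcnj16_m1 replicate 3 (adjusted p = 0.0514) or SS_WT replicate 2 (adjusted p = 0.0518, 0.0114 to 0.0518 over the alternatives). RT1-A2, which lies inside the annotated span of RT1-A1, averaged 6.54 ± 0.901 FPKM in Kcnj16_m1 and 6.53 ± 2.09 FPKM in SS_WT (log2 fold change 0.040, 95% interval -0.34 to 0.42, adjusted p = 0.889). RT1-M3-1, related to the mouse chain H2-M3 that presents formylated peptides, fell by 0.52 on the log2 scale, with 2.57 to 3.602 FPKM in Kcnj16_m1, against 3.54 to 5.19 FPKM in SS_WT (adjusted p = 0.00711). RT1-T24-4 stood at 15.2 ± 1.06 FPKM in Kcnj16_m1 and 18.02 ± 2.89 FPKM in SS_WT (adjusted p = 0.101), and RT1-CE7 at 5.95 ± 0.327 FPKM in Kcnj16_m1 and 5.79 ± 0.643 FPKM in SS_WT (adjusted p = 0.736). RT1-T24-4 passed without SS_WT replicate 1 (adjusted p = 0.0316). The heavy chain genes are close copies of each other, and the row to which a read was given is uncertain for all of them.

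B2m, the light chain shared by all class I molecules, had 481.6, 517.1, 532.9, 525.4 and 499.6 FPKM in Kcnj16_m1 replicates 1 to 5. In SS_WT replicates 1 to 5 it had 604.2, 768.4, 869.8, 642.8 and 747.1 FPKM. All wild-type libraries were above all mutant libraries, and the wild-type values were more spread. B2m fell by 0.495 on the log2 scale (SE 0.093, limma adjusted p = 0.00348), to 511.3 ± 20.7 FPKM in Kcnj16_m1, against 726.5 ± 106 FPKM in SS_WT. B2m lies on chromosome 3 (114087287 to 114093309 in the table's own coordinates), outside the RT1 region on chromosome 20, where RT1-Da spans 4127644 to 4132616 and Psmb8 spans 3990613 to 3993769.

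Genes that load class I molecules went in part with B2m. Tapbpl, a relative of tapasin that edits peptides, averaged 4.88 ± 0.509 FPKM in Kcnj16_m1 and 9.42 ± 2.13 FPKM in SS_WT and fell by 0.86 on the log2 scale (SE 0.13, limma adjusted p = 0.00140). Erap1, which trims peptides in the endoplasmic reticulum, had 9.64 to 10.1 FPKM in Kcnj16_m1 and 10.7 to 12.9 FPKM in SS_WT and fell by 0.26 (adjusted p = 0.00500). For both genes the groups did not overlap. The peptide transporter and tapasin did not pass: Tap1 averaged 5.04 ± 0.544 FPKM in Kcnj16_m1 and 5.42 ± 0.428 FPKM in SS_WT (log2 fold change -0.098, 95% interval -0.28 to 0.079, adjusted p = 0.389), and Tapbp averaged 32.8 ± 3.54 FPKM in Kcnj16_m1 and 36.0 ± 3.42 FPKM in SS_WT (log2 fold change -0.13, 95% interval -0.32 to 0.053, adjusted p = 0.261). The other subunit of the transporter is given in 2 rows that went differently. ENSRNOG00000046031 averaged 3.67 ± 0.638 FPKM in Kcnj16_m1 and 4.22 ± 0.648 FPKM in SS_WT (adjusted p = 0.283), and ENSRNOG00000000455 averaged 1.33 ± 0.341 FPKM in Kcnj16_m1 and 2.77 ± 0.845 FPKM in SS_WT (log2 fold change -0.82, adjusted p = 0.00705). Both carry the symbol Tap2 at separate places on chromosome 20, so the level of Tap2 as a whole is uncertain.

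Nlrc5, the class I regulator, was low and just missed the threshold. It had 0.492, 0.380, 0.766, 0.583 and 0.607 FPKM in Kcnj16_m1 replicates 1 to 5 and 0.754, 0.819, 0.842, 0.815 and 1.12 FPKM in SS_WT replicates 1 to 5, on 37 to 111 reads per library. Kcnj16_m1 replicate 3 lay within the wild-type range. The log2 fold change was -0.37 (SE 0.13, limma adjusted p = 0.0507), and it passed with no filter on low values (adjusted p = 0.0492), with limma-voom on the recovered reads (adjusted p = 0.0169), without Kcnj16_m1 replicate 3 (adjusted p = 0.0369) and without SS_WT replicate 1 (adjusted p = 0.0497), in a range of 0.0169 to 0.120 over the alternatives. Cd1d1, which presents lipids to NKT cells, averaged 4.05 ± 0.383 FPKM in Kcnj16_m1 and 4.38 ± 0.564 FPKM in SS_WT (log2 fold change -0.097, 95% interval -0.30 to 0.11, adjusted p = 0.464).

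The immunoproteasome genes fell, 4 of 4 tested. Psmb8 had 2.02, 1.43, 1.63, 2.11 and 2.88 FPKM in Kcnj16_m1 replicates 1 to 5 and 6.69, 5.13, 7.07, 2.87 and 4.68 FPKM in SS_WT replicates 1 to 5. Kcnj16_m1 replicate 5 and SS_WT replicate 4 met at the same level, and the other libraries were apart. Psmb8 fell by 1.17 on the log2 scale (SE 0.22, limma adjusted p = 0.00336), the largest fall among the tested members. Psmb10 had 10.6, 11.9, 11.6, 14.5 and 15.7 FPKM in Kcnj16_m1 and 19.1, 26.0, 29.6, 18.5 and 28.9 FPKM in SS_WT, and fell by 0.89 (SE 0.15, adjusted p = 0.00234). Psmb9 averaged 8.41 ± 1.05 FPKM in Kcnj16_m1 and 12.1 ± 2.57 FPKM in SS_WT and fell by 0.48 (SE 0.13, adjusted p = 0.0187). Psme2, a subunit of the proteasome activator PA28, averaged 33.2 ± 1.77 FPKM in Kcnj16_m1 and 47.5 ± 5.34 FPKM in SS_WT and fell by 0.50 (SE 0.076, adjusted p = 0.00124). Groups did not overlap for Psmb9, Psmb10 and Psme2. Psme1, the partner of Psme2 in the activator, had 0 to 0.103 FPKM in Kcnj16_m1 and 0.0549 to 0.422 FPKM in SS_WT, at most 7 reads in a library, and overlaps Emc9 on the other strand.

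The constitutive subunits that the immunoproteasome subunits replace did not pass the test. Psmb5 averaged 87.7 ± 3.70 FPKM in Kcnj16_m1 and 84.7 ± 6.37 FPKM in SS_WT (limma adjusted p = 0.534), Psmb6 averaged 95.5 ± 4.38 FPKM in Kcnj16_m1 and 96.7 ± 9.23 FPKM in SS_WT (adjusted p = 0.889), and Psmb7 averaged 33.8 ± 1.38 FPKM in Kcnj16_m1 and 26.8 ± 7.98 FPKM in SS_WT (adjusted p = 0.106). The log2 ratio of FPKM + 0.5 of each immunoproteasome subunit to its counterpart was tested, with the pairs chosen after the values were seen. The p-values of these ratios are therefore no support beyond the calls of the single genes. Psmb8 to Psmb5 was -5.16 ± 0.267 in Kcnj16_m1 and -3.93 ± 0.418 in SS_WT, a difference of -1.23 (exact two-sided permutation p = 0.00794, the smallest this test can give with 5 libraries a group, adjusted p = 0.0106 over 4 ratios). Psmb10 to Psmb7 was -1.37 ± 0.180 in Kcnj16_m1 and -0.11 ± 0.513 in SS_WT (difference -1.26, exact permutation p = 0.00794, adjusted p = 0.0106), with Psmb7 itself varying from 17.6 to 39.3 FPKM among the SS_WT libraries and SS_WT replicate 1 far below the other 4 in this ratio. Psmb9 to Psmb6 was -3.44 ± 0.177 in Kcnj16_m1 and -2.97 ± 0.321 in SS_WT (difference -0.47, exact permutation p = 0.0317, adjusted p = 0.0317), and its unadjusted p ran from 0.00794 to 0.0635 with 1 library left out. Over the 15 tested genes of the constitutive proteasome list, 4 were lower, 0 higher and 11 did not pass, with a median log2 fold change of -0.081. Those that fell included Psma4 by 0.42, Psma2 by 0.39 and Psmb2 by 0.35 on the log2 scale.

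Psmb9 and Tap1 lie head to head on chromosome 20 in the table, with 189 bases between the annotated starts. Psmb9 fell and Tap1 did not pass. The log2 ratio of Psmb9 to Tap1 was 0.68 ± 0.065 in Kcnj16_m1 and 1.07 ± 0.215 in SS_WT (difference -0.38, exact permutation p = 0.00794, adjusted p = 0.0106 over the same 4 ratios), with all 5 Kcnj16_m1 libraries below all SS_WT libraries. This pair too was chosen after its values were seen, so its p-value is no support beyond the calls of the 2 genes.

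**Figure D3:**
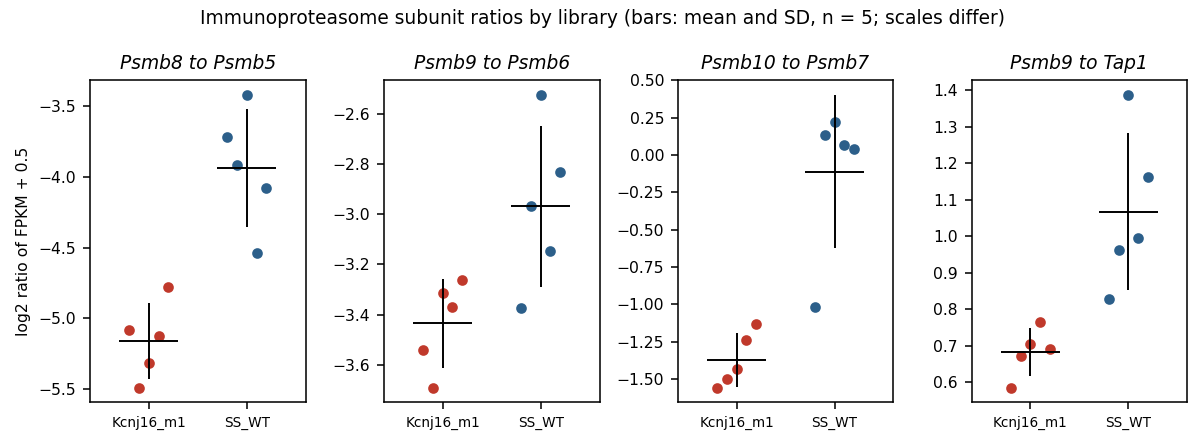
Log2 ratio of FPKM + 0.5 (y axis, scale set per panel) of each immunoproteasome subunit to its constitutive counterpart, and of Psmb9 to its neighbour Tap1, by library, with Kcnj16_m1 in red and SS_WT in blue. Horizontal bars are means and vertical bars SDs over 5 libraries: the groups are apart for Psmb8 to Psmb5, Psmb10 to Psmb7 and Psmb9 to Tap1 and overlap for Psmb9 to Psmb6.

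Class I and class II were then set side by side over the 10 libraries. The 34 class I chains summed to 139.1, 138.3, 134.4, 138.3 and 163.5 FPKM in Kcnj16_m1 replicates 1 to 5 and to 158.5, 161.2, 174.8, 165.9 and 190.0 FPKM in SS_WT replicates 1 to 5. The 10 class II chains summed to 144.0, 123.7, 159.8, 163.1 and 170.5 FPKM in Kcnj16_m1 and to 205.9, 203.0, 255.8, 175.6 and 232.4 FPKM in SS_WT. Kcnj16_m1 replicate 5 was the highest mutant library in both sums, and SS_WT replicate 3 was the highest wild-type library for class II and SS_WT replicate 5 for class I. The class II sum was 1.07 ± 0.121 times the class I sum in Kcnj16_m1 and 1.26 ± 0.146 times in SS_WT, with ranges of 0.895 to 1.19 in Kcnj16_m1 and 1.06 to 1.46 in SS_WT that overlap. RT1-Da, RT1-Ba and RT1-Bb held 91.4% ± 0.986 of the class II sum in Kcnj16_m1 and 92.2% ± 0.801 in SS_WT. These sums are descriptions, without a test, and the low class I chains add little to them.

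Whether single class II genes differed by another factor than class I genes was tested on 2 pairs, as log2 ratios of FPKM + 0.5. The log2 ratio of Cd74 to B2m was 0.25, 0.14, 0.25, 0.27 and 0.51 in Kcnj16_m1 replicates 1 to 5 and 0.26, 0.25, 0.042, 0.079 and 0.26 in SS_WT replicates 1 to 5. The difference was 0.10 (SE 0.077, exact two-sided permutation p = 0.230, adjusted p = 0.460 over the 2 pairs). It was 0.048 without Kcnj16_m1 replicate 5, the library with the highest ratio, and passed under no alternative (adjusted p 0.230 to 0.889). The log2 ratio of the regulators Ciita and Nlrc5 was 1.23 ± 0.130 in Kcnj16_m1 and 1.27 ± 0.154 in SS_WT, a difference of -0.043 (SE 0.090, exact permutation p = 0.675, adjusted p = 0.675). Neither pair passed, which does not show that the classes changed by the same factor. A share of lower calls of 62.5% among class II chains and 28.6% among class I chains is a count, and its difference was not tested.

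**Figure D4:**
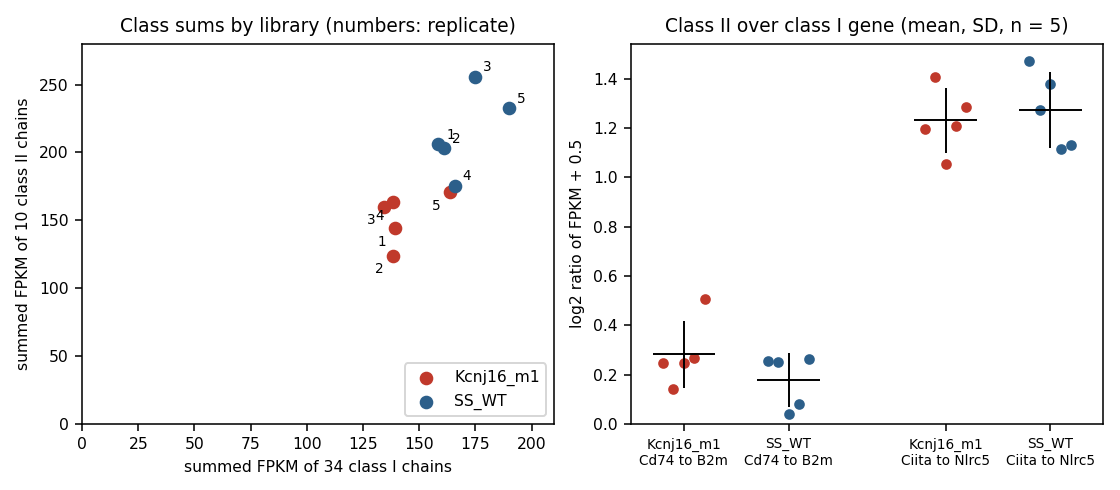
Left, summed FPKM of the 34 class I chains (x axis) and of the 10 class II chains (y axis), 1 point per library, numbered by replicate, with Kcnj16_m1 in red and SS_WT in blue. Right, log2 ratio of Cd74 to B2m and of Ciita to Nlrc5 (y axis) by library with mean and SD: SS_WT sums reach 190.0 and 255.8 FPKM, while the ratios overlap between the genotypes.

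The libraries ranked alike over many members. Among the 5 Kcnj16_m1 libraries, replicate 5 was the highest for 20 and replicate 2 the lowest for 17 of the 37 tested members. Among the SS_WT libraries, replicate 3 was the highest for 17 and replicate 5 for 11, while replicate 1 was the lowest for 16 and replicate 4 for 11. The members share these libraries and are not independent observations. Without SS_WT replicate 3, which also had the highest summed injury markers though not the highest level of each, 19 members were lower and 0 higher, as with all libraries. The 12 tubular injury markers summed to 290.5 to 367.5 FPKM in Kcnj16_m1 and 653.4 to 3313 FPKM in SS_WT, with 9 of 11 tested lower. Spp1 alone had 91.8 to 144.8 FPKM in Kcnj16_m1 and 389.6 to 2714 FPKM in SS_WT, so the sums rest largely on it. Vcam1 and Krt18 did not pass. Havcr1 had Kcnj16_m1 libraries under the 0.5 FPKM of the filter and entered the test through SS_WT, so its call is no support. The part of the injury markers in the lower MHC levels was not tested.

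Most macrophage markers were lower too, while Csf1r, Adgre1 and most dendritic cell markers did not pass. Of 19 tested markers of both cell types, 12 were lower, 0 higher and 7 did not pass, and 8 were lower without the SS_WT pair with the lowest label numbers. The 22 markers summed to 267.6 to 322.6 FPKM in Kcnj16_m1 and 373.9 to 640.7 FPKM in SS_WT, and none was at 0 in every library. The lysosomal gene Laptm5 fell by 0.86 on the log2 scale (limma adjusted p = 0.000959), the complement gene C1qa by 0.79 and the myeloid adaptor gene Tyrobp by 0.78. Of the 12, Itgam, Mrc1 and Flt3 had Kcnj16_m1 libraries under the 0.5 FPKM of the filter and entered the test through SS_WT, where they were higher, so their calls are no support. Flt3, a receptor of dendritic cell precursors, had 0.327 to 0.564 FPKM in Kcnj16_m1 and 1.02 to 1.46 FPKM in SS_WT. The macrophage markers Csf1r and Adgre1 had log2 fold changes of -0.31 and -0.21 (limma adjusted p = 0.138 and 0.401). The dendritic cell markers Itgax, Clec9a and Batf3 had log2 fold changes of -0.14, -0.23 and -0.43, and Irf4 and Zbtb46 of 0.12 and 0.185, and none of these 5 passed. The 13 T and NK cell markers in the table summed to 15.6 to 19.8 FPKM in Kcnj16_m1 and 27.2 to 41.8 FPKM in SS_WT, with 8 of 10 tested lower, against 5 lower without the SS_WT pair with the lowest label numbers. Of these 8, Cd3d, Cd3e, Cd3g and Cd2 entered the test through SS_WT in the same way. The other 4, Cd4 among them, reached 0.5 FPKM in every library. Cd4 alone averaged 11.48 FPKM in Kcnj16_m1 and 16.78 FPKM in SS_WT, so the T and NK cell sums rest largely on it. Which cells carried the Cd4 RNA was not tested. The 8 B cell markers summed to 2.04 to 2.74 FPKM in Kcnj16_m1 and 3.66 to 6.27 FPKM in SS_WT. Among these only the antibody joining gene Igj was high enough to test. Its log2 fold change was -0.96 (adjusted p = 0.000726), and the B cell genes Cd79a, Cd79b and Ms4a1 averaged 0.018 to 0.127 FPKM in Kcnj16_m1 and 0.0829 to 0.147 FPKM in SS_WT. The part of leukocyte content in the lower MHC levels was not tested. Part of the markers of resident kidney cells went the other way, where 14.6% of all genes tested were higher and 14.0% lower. Of endothelial markers, whose cells can also carry class II, 5 of 7 tested were higher and 0 lower, with a median log2 fold change of 0.33. Podocyte markers were higher for 4 of 5 and lower for 0 (median 0.52), distal nephron markers higher for 5 of 9 and lower for 1 (median 0.43), and proximal tubule markers higher for 3 of 8 and lower for 0 (median 0.22). The lower distal marker was Calb1 (log2 fold change -1.25, limma adjusted p = 0.0168), and 3 distal markers did not pass. Of the proximal tubule markers 5 did not pass.

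Of the factors that sit on class II promoters, 1 of 7 was higher, 2 were lower and 4 did not pass, with a median log2 fold change of -0.027. Rfx5, which binds the X box, had a log2 fold change of -0.27 (limma adjusted p = 0.0215, and 0.0532 without SS_WT replicate 5). Creb1, which binds next to it, had a log2 fold change of -0.30 (adjusted p = 0.0301), and missed the threshold without any 1 of Kcnj16_m1 replicates 2, 4 and 5 or SS_WT replicates 3, 4 and 5. Nfyc, a subunit of the Y box factor, rose by a log2 fold change of 0.195 (adjusted p = 0.0109). In the endolysosomal processing list, 6 of 9 tested genes were lower, 0 higher and 3 did not pass, with a median of -0.28. The cathepsin gene Ctsl fell to 994.9 FPKM in Kcnj16_m1, against 1707 FPKM in SS_WT (log2 fold change -0.78, adjusted p = 0.000459), and Ctsz fell by 0.72 on the log2 scale. Ctsb and Ctsd fell by 0.35 and 0.28, and neither passed without the SS_WT pair with the lowest label numbers (adjusted p = 0.0550 and 0.0752), where 3 genes of this list were lower. Ctsl and Ctsb are also abundant lysosomal enzymes of the tubule.

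Among genes listed for class I folding in the endoplasmic reticulum, 4 of 6 tested were lower, 0 higher and 2 did not pass. Sec61b, a subunit of the translocation channel, fell by 0.62 on the log2 scale (limma adjusted p = 0.00193), and Pdia3, which binds tapasin, fell by 0.37 (adjusted p = 0.0178). Pdia3 overlaps other genes in the table and is uncertain. Canx fell by 0.16 (limma adjusted p = 0.0356) and kept its call in 9 of 18 alternatives, with an adjusted p of up to 0.118. Calr, which encodes calreticulin, fell to 252.9 FPKM in Kcnj16_m1, against 386.7 FPKM in SS_WT, a log2 fold change of -0.595 (adjusted p = 0.0119), and 0.0606 without the SS_WT pair with the lowest label numbers. Of 4 tested costimulation genes, 1 was lower, Cd276, with a log2 fold change of -0.87 (adjusted p = 0.00552), and 3 did not pass. Another gene of that list passed without Kcnj16_m1 replicate 5 or without SS_WT replicate 2.

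Interferon gamma is the main inducer of Ciita and the immunoproteasome. Of 21 tested genes of its pathway, 9 were lower, 1 higher and 11 did not pass, with a median log2 fold change of -0.34. Of these 9, Cxcl9 had Kcnj16_m1 libraries under the 0.5 FPKM of the filter and entered the test through SS_WT, so its call is no support. Ubd, an interferon-induced ubiquitin-like gene, fell to 11.7 FPKM in Kcnj16_m1, against 80.8 FPKM in SS_WT (log2 fold change -2.55, limma adjusted p = 0.000752), and the chemokine gene Cxcl11 fell by 1.44 (adjusted p = 0.000575). Both overlap other genes in the table and are uncertain. Irf8, a transcription factor of myeloid cells, fell by 0.83 (adjusted p = 0.000710). Socs1, a feedback inhibitor of the pathway, went the other way, to 5.01 FPKM in Kcnj16_m1, against 1.87 FPKM in SS_WT (log2 fold change 1.13, adjusted p = 0.00850). Socs3, another feedback inhibitor, named after its values were seen, fell to 2.39 FPKM in Kcnj16_m1, against 9.48 FPKM in SS_WT (log2 fold change -1.59, adjusted p = 0.00911). Irf1, a transcription factor of the pathway named after its values were seen, averaged 8.33 FPKM in Kcnj16_m1 and 10.5 FPKM in SS_WT and did not pass (adjusted p = 0.0656). In the type I interferon list 5 of 17 tested genes were lower, 0 higher and 12 did not pass, and with 1 library left out the count of lower genes ran from 2 to 8, reaching 8 without Kcnj16_m1 replicate 5 and 2 without any 1 of Kcnj16_m1 replicates 1, 2 and 3 and SS_WT replicates 2 and 5.

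**Figure D5:**
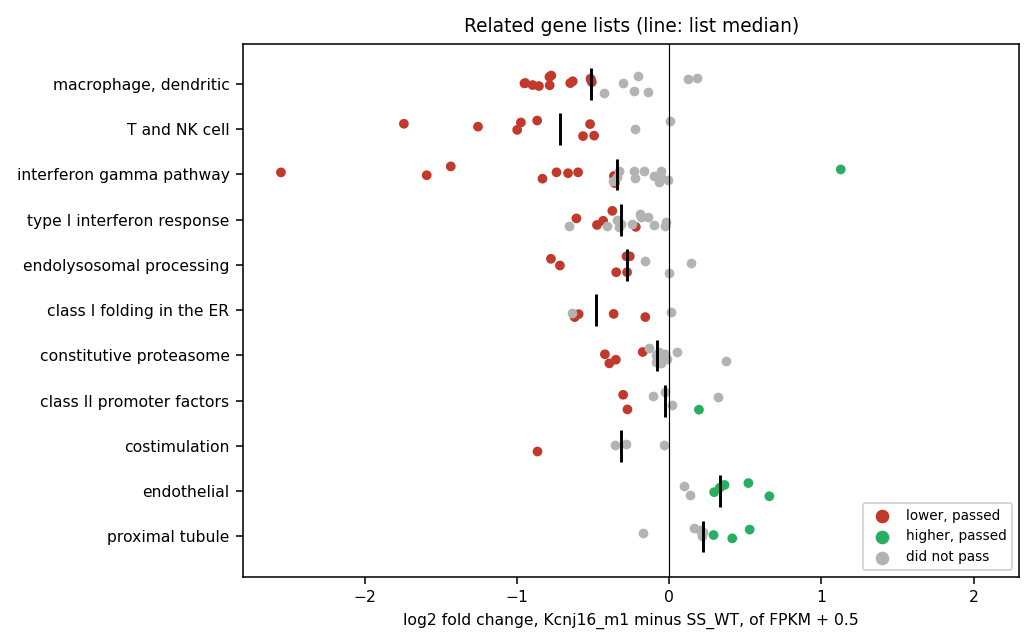
Log2 fold change (x axis, Kcnj16_m1 minus SS_WT, of FPKM + 0.5) of each tested gene in 11 related lists down the page, with the list median as a black line. Red and green points passed the test as lower and higher, grey points did not: macrophage and T cell markers lie mostly left of 0 and endothelial markers right of it.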

How the data were processed

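Polyadenylated RNA was sequenced, and the authors deposited 1 FPKM value per gene and library. The submitters' processing notes name featureCounts 1.5.0-p3, StringTie 1.3.3b, HISAT2 2.0.5 and fastp. Neither a genome build nor an annotation is named in any source used here. Gene lengths are those deposited in the same table. The labels' protocols describe both a stranded and an unstranded library, so reads of genes overlapping on opposite strands may not be told apart, and how reads matching several RT1 copies were counted is not stated. FPKM times gene length, divided by the value of 1 read, gave whole reads in every library (tolerance 0.05).

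A gene entered the limma 3.58.1 fit (R 4.3.3, eBayes with trend=TRUE, log2(FPKM + 0.5)) if 5 or more libraries reached 0.5 FPKM. Benjamini-Hochberg adjustment ran over all genes tested, with a threshold of 0.05. The fit was also run on simulated reads, with the same relative spread between libraries set for every gene and both groups. Wild-type values of genes such as B2m were more spread than mutant values, so that run gives no assurance for such genes. Libraries of 1 group differed by a chi-square per gene of at least 6.58 on the recovered reads, above the value of 1 of sampling noise, and each counts as 1 sample. Members, gene lists and tests were chosen with earlier results of these data known. Named are the helper genes, the 6 class I and 8 class II chains with the highest mean, others by count or after their values were seen, and up to 4 passing genes per list. RT1-A3, RT1-M3-1 and RT1-M6-2 were named after their values were seen.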

Additional observations from a re-analysis of the deposited data

Results flagged for a closer look

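Within a group of 5 libraries, 4 values of the named members lay far from the other 4, among 58 groups examined; chance flags about 1 in 20. Nlrc5 was highest in SS_WT replicate 5, at 1.12 FPKM, with the other wild-type libraries at 0.754 to 0.842 FPKM. RT1-CE7 was lowest in Kcnj16_m1 replicate 2, at 5.38 FPKM, with the others at 6.004 to 6.21 FPKM, and highest in SS_WT replicate 3, at 6.92 FPKM, with the others at 5.36 to 5.69 FPKM. RT1-DMa was lowest in SS_WT replicate 1, at 0.452 FPKM, with the others at 0.837 to 0.953 FPKM.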

How the results depend on the processing

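Over the alternatives run (other pseudocounts, filters and scalings, limma-voom, each library left out, and the SS_WT pair with the lowest label numbers left out), the members lower numbered 18 to 22, the class II chains lower 4 to 6, the class I chains lower 3 to 5 and the class I helpers and immunoproteasome genes lower 8 to 9. The members higher, and the class I chains higher, numbered 1 without the SS_WT pair with the lowest label numbers and 0 to 1 with a single library left out; the gene was RT1-M6-2 (log2 fold change 0.33, limma adjusted p = 0.0291, without SS_WT replicate 1). The Cd74 to B2m difference ran from 0.048 to 0.154. The Ciita to Nlrc5 difference was 0.083 with a pseudocount of 0.1, 0.023 without that pair and -0.087 to 0.0067 with a library left out. RT1-A2, not called, ran from -0.071 to 0.19 with a library left out, and RT1-CE7, not called, was -0.020 without that pair. Among related lists, leaving out that pair gave 2 lower genes for class I folding, 5 for T and NK cells, 3 for endolysosomal processing, 2 for type I interferon and 0 for the distal nephron, and 1 higher gene for the constitutive proteasome and 5 for the proximal tubule. With no filter on low values, 2 B cell, 2 costimulation and 2 type I interferon genes were lower, and with a mean of at least 1 FPKM 5 T and NK cell genes were. Quantile normalization gave 1 higher endolysosomal gene, 1 higher macrophage gene and 7 higher proximal tubule genes. With a library left out, the genes lower ran from 0 to 2 for class II promoter factors, 1 to 2 for costimulation and 2 to 8 for type I interferon, and the genes higher ran from 0 to 1 for the constitutive proteasome, 0 to 1 for endolysosomal processing and 3 to 6 for the proximal tubule. The causes were not tested. The limma-voom fit, the RT1-DMb omission and the proteasome ratios were chosen after seeing the data, and the planned edgeR and DESeq2 fits were not run, since the values used are FPKM. The labels name no pairing and carry no replicate numbers, so no paired analysis was run. Depth limits low genes such as RT1-DMa, tested on 11 to 30 reads per library.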
